A study of Mus musculus with 16 samples.

Results

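The 30 genes described here belong to the oligodendrocyte lineage, from its precursor cells to the cells that wrap axons in myelin. They were taken from a fixed list of mouse symbols, each matched to 1 Ensembl gene of the count table, and all 30 of 30 were found among 53801 genes. The rule that names them uses no measured value, but the list was drawn up with earlier results of these data known. All 30 passed the filter on low counts in every comparison below. By stage they were split into 10 early members, which are surface proteins of precursors, transcription factors of the lineage and genes of the committed or newly formed stage, and 20 late members, which encode transcription factors of myelinating cells, myelin proteins and enzymes of myelin lipids or of support.

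RNA-seq counts came from 16 libraries of 9 mice of a mixed C57BL6/J-129sv background, aged 10 days. Trrap encodes a shared subunit of several histone acetyltransferase complexes. Controls were Trrap Fl/+; Camk2-Cre tg and mutants, named Trrap-FBΔ here, were Trrap Fl/Fl; Camk2-Cre tg, so that the controls also carried the Cre transgene and 1 floxed allele. Control cortices came from mice 55, 58, 63 and 64, control striata from mice 58, 63, 64 and 65, and both tissues of the Trrap-FBΔ group from mice 57, 59, 60 and 61. Values given library by library follow these orders of mice. The sexes were not balanced, with 4 libraries in each group and 2 females of 4 in the control cortices, 1 of 4 in the control striata and 3 of 4 in the Trrap-FBΔ group of each tissue. The Camk2a-Cre line is meant to act in glutamatergic neurons of the forebrain, and each library was made from whole tissue, so that oligodendrocytes, neurons and all other cells of the piece contributed RNA. In such bulk samples fewer cells of a type and less RNA per cell cannot be told apart.

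Each library held between 28743866 and 48761429 counts. The targeted gene Trrap did not separate the groups at the level of the whole gene. It lay at 136 to 173 CPM (counts scaled to a common library size) in control and 121 to 146 CPM in Trrap-FBΔ cortices (log2 fold change -0.18 ± 0.08 SE, adjusted p = 0.083), and the striatal groups overlapped as well (log2 fold change -0.04, adjusted p = 0.52). Counts over the whole gene include exons outside the floxed part and cells without Cre, so that they do not check the deletion.

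The tissue labels were checked against neuronal genes, on lists written after values of these libraries had been seen. The cortical genes Tbr1, Neurod6 and Cux2 were higher in each of the 8 cortex libraries than in any of the 8 libraries labelled striatum, with sums of 363 to 436 against 94.3 to 152 CPM. Most genes of striatal projection neurons did not separate the tissues: 6 of 7 overlapped. The dopamine receptor gene Drd1 was at 18.1 to 40.2 CPM in cortex and 7.84 to 59.8 CPM in the libraries labelled striatum. Tac1 did separate them, at 17.1 to 33.1 CPM in cortex and 38.9 to 62.9 CPM in the libraries labelled striatum. Of the overlapping genes, Drd2, Rgs9 and Penk had a higher median in the latter, and Drd1, Adora2a and Ppp1r1b a lower one. Genes known from thalamic and midbrain neurons were higher in all 8 libraries labelled striatum, for example Shox2 at 0 to 1.37 CPM in cortex and 13.6 to 42.7 CPM in the libraries labelled striatum, and their 6 genes summed to 53.7 to 102 against 344 to 601 CPM. The label striatum was therefore not borne out by most of its defining genes, and the groups are called libraries labelled striatum, or striata for short. Within the control cortices, the 7 striatal genes summed to 175, 508, 523 and 184 CPM, so that mice 58 and 63 lay above mice 55 and 64, while the Trrap-FBΔ cortices lay between, at 222, 234, 313 and 318 CPM. Among the striata the sums were 191, 410.1, 913 and 392 CPM in controls, lowest in mouse 58 and highest in mouse 64, and 463, 304, 287 and 325 CPM in the Trrap-FBΔ group. Results that rest on these 4 control libraries are given with and without them, and the part of the makeup of the tissue pieces in any result was not tested.

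Oligodendrocyte precursors divide under the control of platelet-derived growth factor and are set on their path by the factors Olig1, Olig2, Sox10 and Nkx2-2. As they leave the cell cycle they pass a short committed stage, then switch on Myrf, which drives the genes of compact myelin. In the mouse forebrain this switch is under way in the second postnatal week, earlier in deep and caudal regions than in the cortex. The early and late members were thus set against each other in each comparison.

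The markers of every stage were detected in all groups. The 10 precursor markers summed to 1243 to 1502 CPM in control cortices and 1576 to 1783 CPM in control striata, and the 10 markers of myelinating cells to 309.8 to 564 and 558 to 1747 CPM. The peripheral myelin gene Pmp2, a marker of Schwann cells, was at 0 counts in 13 of 16 libraries and at most at 0.063 CPM. On the scale of CPM per kilobase of exon, which allows levels of different genes to be compared, Mbp led the list in control cortex with a mean of 155, before Cnp with 59.8, Olig1 with 57.1 and Gpr17 with 44.8 CPM per kb. Trf and Hapln2 were the lowest, with 0.394 and 0.44 CPM per kb. Trf shared 63.5% of its exon bases with Gm20425 on the same strand, so its counts are uncertain. Olig2 (chr16:91225457-91228677) and Olig1 (chr16:91269772-91271933) lie 41.1 kb apart on chromosome 16 of GRCm38 and are separate genes in the counts.

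Promoter sequence was at hand for 22 of the 30 members in the RefSeq table of GRCm38.p6 (250 bases before each start), and is shown for 2 precursor genes and 2 late genes that were lower in Trrap-FBΔ cortices. The GC box, the motif GGGCGG known to be bound by factors of the Sp1 family, and the motif ACAAAG known from SOX factors were searched on both strands, as were their reverse complements CCGCCC and CTTTGT. Capitals mark the matches, and bases inside the annotated gene were left off. Coordinates are those of GRCm38 and each sequence reads 5′ to 3′ on the strand of its gene. The Pdgfra stretch (chr5:75152001-75152250, plus strand) held neither motif, that of Cspg4 (chr9:56864854-56865032, plus strand) held 2 GC boxes, that of Mobp (chr9:120149492-120149706, plus strand) held 6 SOX motifs, and that of Ugt8a (chr3:125938653-125938902, minus strand) held 3 GC boxes, 2 of them overlapping.
Pdgfra: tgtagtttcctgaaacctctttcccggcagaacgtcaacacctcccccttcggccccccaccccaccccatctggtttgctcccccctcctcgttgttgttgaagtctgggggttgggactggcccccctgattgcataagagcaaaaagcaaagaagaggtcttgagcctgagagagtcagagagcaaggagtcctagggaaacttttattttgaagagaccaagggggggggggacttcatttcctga
Cspg4: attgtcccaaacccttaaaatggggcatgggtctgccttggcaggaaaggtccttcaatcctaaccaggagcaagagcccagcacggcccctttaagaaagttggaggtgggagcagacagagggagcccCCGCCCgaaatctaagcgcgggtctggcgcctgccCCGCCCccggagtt
Mobp: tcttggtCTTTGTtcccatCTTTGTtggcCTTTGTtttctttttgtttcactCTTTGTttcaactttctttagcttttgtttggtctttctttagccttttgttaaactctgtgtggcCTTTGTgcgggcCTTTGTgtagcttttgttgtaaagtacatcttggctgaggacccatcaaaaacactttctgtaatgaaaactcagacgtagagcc
Ugt8a: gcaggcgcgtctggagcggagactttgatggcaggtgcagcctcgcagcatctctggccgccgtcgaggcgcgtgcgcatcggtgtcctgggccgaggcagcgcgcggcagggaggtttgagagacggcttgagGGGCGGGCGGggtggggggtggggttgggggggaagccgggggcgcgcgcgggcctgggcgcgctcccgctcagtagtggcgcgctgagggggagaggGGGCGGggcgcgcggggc
Of the 22 members, 8 held a GC box (Bmp4, Cnp, Cspg4, Gjb1, Nkx2-2, Olig2, Sirt2 and Ugt8a), against 32.7% of all 32851 promoter windows. The SOX motif was found in 6 members (Cnp, Gjb1, Mag, Mobp, Opalin and Tspan2), against 16.5% of all windows. A member was counted if any of its windows held the motif, and the 22 members had 30 windows. The shares are over single windows, so that members and shares are not compared like for like. These matches of letters describe the windows only and no binding was measured.

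In the cortex, early and late members were lower in Trrap-FBΔ than in control mice, and the calls of the late members varied more with the libraries and the fit than those of the early members. In edgeR, with a quasi-likelihood fit and p adjusted after Benjamini and Hochberg over 18268 genes (under 0.05, the rule used for every call here), 20 of 30 members fell and 0 rose, where 17.6% of all genes fell. The groups did not overlap for 12 of the 30 members, 7 early and 5 late, against 16.7% of all genes. The median log2 fold change was -0.43 over the members and 0.00 over all genes. By stage, 7 of 10 early members fell, with a median over the 10 of -0.35, and 13 of 20 late members fell, with a median over the 20 of -0.52. With control mice 55 and 64 alone as controls, a fit with 2 controls in place of 4 that was added after the data were seen, 4 of 10 early members (Pdgfra, Cspg4, Olig2 and Sox10) and 0 of 20 late members fell, where 12.3% of all genes fell. In that fit 4 late members were under an unadjusted p of 0.05, and the median of the late members was -0.17. Control mice 58 and 63 both exceeded mice 55 and 64 for 20 of 20 late and 7 of 10 early members. Leaving them out therefore had to raise the log2 fold changes of the late members. Since this fit leaves out both mice and also has fewer controls, the part of each in the lost calls cannot be told apart. With all 16 libraries in 1 fit, at the same median of -0.52, 1 of 20 late members (Nkx6-2) and 6 of 10 early members were called. DESeq2 and sex as a covariate each called 8 of 20 late and 7 of 10 early members.

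**Figure D1:**
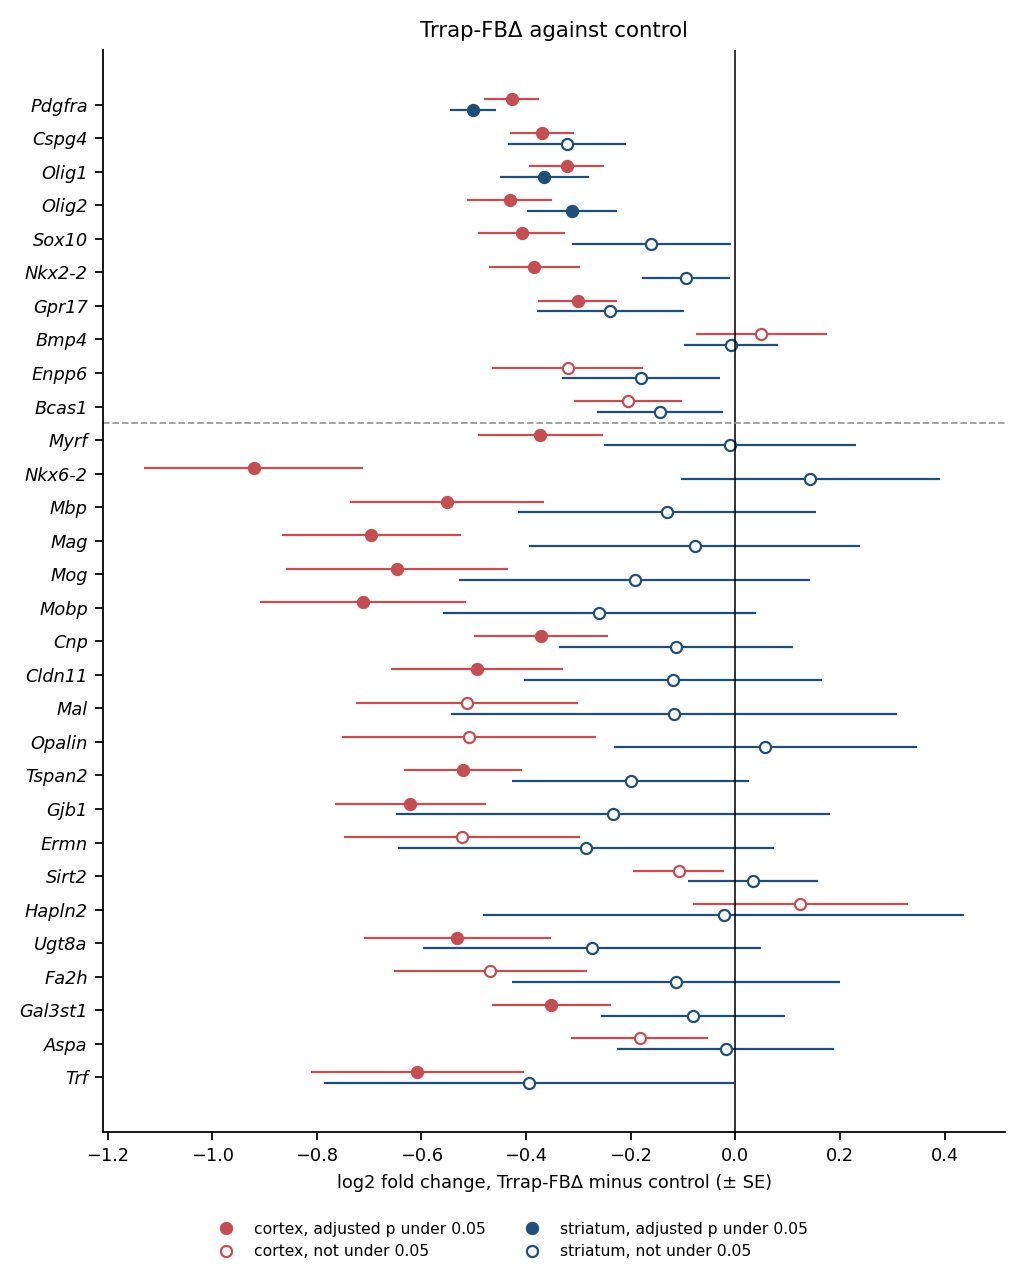
Log2 fold change of each of the 30 members, Trrap-FBΔ minus control, with its standard error (x axis) in the cortex (red) and in the libraries labelled striatum (blue). Filled points passed an adjusted p of 0.05 and open points did not; the dashed line separates the 10 early members (top) from the 20 late members, and filled points stand for 20 members in the cortex and 3, all early, in the striatum.

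The precursor genes gave the clearest separation. Pdgfra, the receptor through which platelet-derived growth factor drives precursor division, stood at 170.4, 150.0, 154 and 147 CPM in control cortices and at 115, 116, 112 and 119 CPM in Trrap-FBΔ cortices. Each mutant library lay below each control (log2 fold change -0.43 ± 0.05 SE, adjusted p = 0.00017), and with controls 55 and 64 alone the value was -0.46 (adjusted p = 0.0014). Cspg4, the NG2 proteoglycan of the precursor surface, stood at 29.1, 31.5, 28.2 and 28.6 CPM in controls and 21.8, 22, 22.4 and 24.7 CPM in mutants. Here too the groups did not overlap (log2 fold change -0.37 ± 0.06 SE, adjusted p = 0.0011), and with controls 55 and 64 alone the value was -0.35 (adjusted p = 0.011). Pdgfra is also found in fibroblasts of the meninges and Cspg4 in mural cells of vessels, whose marker lists are given further on.

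All 4 transcription factors of the lineage fell. Olig2, which specifies the lineage, stood at 43.7, 41.4, 42.1 and 39.2 CPM in control and 36.3, 27.7, 28.6 and 30.8 CPM in Trrap-FBΔ cortices (log2 fold change -0.43 ± 0.08 SE, adjusted p = 0.0021). Its neighbour Olig1 stood at 115, 132, 131 and 115 CPM in controls and 112, 91.7, 92.9 and 98.3 CPM in mutants (log2 fold change -0.32 ± 0.07 SE, adjusted p = 0.0053). In both genes mutant mouse 57 was the highest of its group and still below the lowest control. Sox10, which keeps the lineage identity and drives myelin genes, stood at 34.1, 44.1, 40.4 and 36.7 CPM in controls and 31, 27, 27.7 and 31.4 CPM in mutants (log2 fold change -0.41 ± 0.08 SE, adjusted p = 0.0033). Nkx2-2, a homeodomain factor that helps time differentiation, stood at 8.08, 9.72, 9.06 and 8.03 CPM in controls and 6.65, 7.11, 6.08 and 6.94 CPM in mutants (log2 fold change -0.38 ± 0.09 SE, adjusted p = 0.0062). The control libraries of mice 58 and 63 were the highest for Sox10 and Nkx2-2, whereas mouse 55 was the highest for Olig2. With controls 55 and 64 alone, Olig2 at -0.43 (adjusted p = 0.018) and Sox10 at -0.28 (adjusted p = 0.039) were still lower, while Olig1 at -0.22 (adjusted p = 0.067) and Nkx2-2 at -0.27 (adjusted p = 0.087) did not pass.

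Of the 4 genes of the committed and newly formed stage, 1 fell. Gpr17, a receptor found for a short time in committed precursors, stood at 221, 262, 242 and 206 CPM in controls and 205, 173, 188 and 188 CPM in mutants (log2 fold change -0.30 ± 0.08 SE, adjusted p = 0.01). The closest libraries, control mouse 64 and mutant mouse 57, were nearly level, and with controls 55 and 64 alone the value was -0.18 (adjusted p = 0.11). Enpp6, a choline phosphodiesterase of newly forming oligodendrocytes, stood at 37.7, 45.9, 46.4 and 30.1 CPM in controls and 37.5, 31.9, 33.8 and 25.1 CPM in mutants (log2 fold change -0.32 ± 0.14 SE, adjusted p = 0.11). Bcas1, a marker of early myelinating cells, stood at 145, 181, 184 and 139.9 CPM in controls and 166, 137, 134 and 127 CPM in mutants (log2 fold change -0.21 ± 0.10 SE, adjusted p = 0.15). For Enpp6 and Bcas1 the groups overlapped, since control mouse 64 lay within the range of the mutants, as did control mouse 55 for Bcas1. Bmp4, a growth factor also expressed by committed precursors, covered 7.02 to 9.48 CPM in controls and 7.48 to 10.1 CPM in mutants (log2 fold change 0.05 ± 0.13 SE, adjusted p = 0.79).

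Both transcription factors of myelinating cells fell in the full comparison. Myrf, the factor that switches on central myelin genes, stood at 21.6, 30.8, 28.2 and 20.2 CPM in controls and 19.4, 20.5, 19.7 and 18.4 CPM in mutants (log2 fold change -0.37 ± 0.12 SE, adjusted p = 0.032), and mutant mouse 59 lay above control mouse 64. Nkx6-2, a homeodomain factor of differentiating oligodendrocytes, stood at 1.57, 2.77, 2.47 and 1.63 CPM in controls and 1.27, 1.0, 0.94 and 1.25 CPM in mutants (log2 fold change -0.92 ± 0.21 SE, adjusted p = 0.006). Its groups did not overlap and its change was the largest of the 30 members, but with controls 55 and 64 alone it was -0.51 (adjusted p = 0.095).

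The structural myelin genes showed the same order of libraries over and over. Mbp, whose protein holds the cytoplasmic faces of compact myelin together, stood at 1080.3, 1687, 1552 and 948 CPM in control cortices and at 1128, 938, 839.7 and 691 CPM in Trrap-FBΔ cortices (log2 fold change -0.55 ± 0.19 SE, adjusted p = 0.04). Control mice 58 and 63 were far above the other controls, and the other 2 controls lay within the mutant range. Mobp, a small basic protein of central myelin, stood at 179.5, 287, 262 and 154 CPM in controls and 167, 144, 131 and 97.4 CPM in mutants (log2 fold change -0.71 ± 0.20 SE, adjusted p = 0.017). Mag, an adhesion protein of the membrane that faces the axon, stood at 60.1, 103, 89.7 and 55.8 CPM in controls and 52.9, 52.2, 44.3 and 41.5 CPM in mutants (log2 fold change -0.70 ± 0.17 SE, adjusted p = 0.0094), and here the groups did not overlap. Mog, a protein of the outermost myelin surface, stood at 17.8, 28.9, 27.4 and 14.4 CPM in controls and 16.9, 16.2, 13.3 and 10.4 CPM in mutants (log2 fold change -0.65 ± 0.21 SE, adjusted p = 0.036). Cnp, a cyclic nucleotide phosphodiesterase of the uncompacted channels of myelin, stood at 189.7, 262, 249 and 170.0 CPM in controls and 196, 163, 161 and 153 CPM in mutants (log2 fold change -0.37 ± 0.13 SE, adjusted p = 0.042). With controls 55 and 64 alone, the values were -0.18 (adjusted p = 0.46) for Mbp, -0.31 (adjusted p = 0.2) for Mobp, -0.28 (adjusted p = 0.066) for Mag, -0.18 (adjusted p = 0.48) for Mog and -0.10 (adjusted p = 0.5) for Cnp.

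Among the other myelin proteins, Tspan2, a tetraspanin of oligodendrocyte membranes, stood at 94.1, 108, 102 and 76.3 CPM in controls and 73.2, 72.4, 66.1 and 54.1 CPM in mutants (log2 fold change -0.52 ± 0.11 SE, adjusted p = 0.0047), with no overlap. Gjb1, a connexin that couples the layers of myelin, stood at 1.9, 1.94, 2.0 and 1.47 CPM in controls and 1.2, 1.23, 1.17 and 1.15 CPM in mutants (log2 fold change -0.62 ± 0.14 SE, adjusted p = 0.007). It did not follow the common order, since control mouse 55 was nearly level with mice 58 and 63. Cldn11, the claudin of the tight junctions of myelin, stood at 53, 79.1, 72.4 and 47.9 CPM in controls and 55.1, 46.7, 43.5 and 34.5 CPM in mutants (log2 fold change -0.49 ± 0.17 SE, adjusted p = 0.038). Opalin, a membrane protein of late oligodendrocytes, stood at 2.45, 4.8, 4.7 and 2.87 CPM in controls and 3.18, 3.04, 2.64 and 1.71 CPM in mutants (log2 fold change -0.51 ± 0.24 SE, adjusted p = 0.13), and did not pass. With controls 55 and 64 alone, Tspan2 was at -0.36 (adjusted p = 0.054), Gjb1 at -0.50 (adjusted p = 0.085) and Cldn11 at -0.17 (adjusted p = 0.43), none of which passed.

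A further 4 proteins of myelinating cells did not pass in the cortex. Mal, a lipid-raft protein of membrane traffic, covered 24.5 to 44.4 CPM in controls and 15.5 to 28.7 CPM in mutants, and Ermn, a late cytoskeletal protein, 4.8 to 10.2 and 3.69 to 6.36 CPM. Their log2 fold changes were -0.51 (adjusted p = 0.084) and -0.52 (adjusted p = 0.096). Sirt2, a deacetylase abundant in myelin, covered 196 to 253 CPM in controls and 189 to 226 CPM in mutants, and Hapln2, a link protein of nodes of Ranvier, 0.827 to 1.32 and 0.896 to 1.37 CPM. Sirt2 at -0.11 (adjusted p = 0.37) and Hapln2 at 0.12 (adjusted p = 0.67) lay closer to 0 on the log2 scale than the rest of this group. With controls 55 and 64 alone, Sirt2 turned to 0.07 (adjusted p = 0.57).

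Of the 5 enzymes and support proteins, 3 fell. Ugt8a, which makes the myelin lipid galactosylceramide, stood at 62, 87.1, 84.3 and 47.9 CPM in controls and 56.3, 55.3, 46.1 and 37.5 CPM in mutants (log2 fold change -0.53 ± 0.18 SE, adjusted p = 0.039). Gal3st1, which turns that lipid into sulfatide, stood at 10.7, 13.5, 13.1 and 10.6 CPM in controls and 11.4, 9.21, 8.8 and 8.32 CPM in mutants (log2 fold change -0.35 ± 0.11 SE, adjusted p = 0.033). In both, control mouse 64 lay within the mutant range, as did control mouse 55 for Gal3st1. Trf, the iron carrier transferrin, stood at 1.13, 1.84, 1.14 and 1.11 CPM in controls and 0.896, 0.809, 0.757 and 0.98 CPM in mutants (log2 fold change -0.61 ± 0.20 SE, adjusted p = 0.038), with no overlap but with mouse 58 apart from the other controls. With controls 55 and 64 alone, Ugt8a was at -0.17 (adjusted p = 0.45), Gal3st1 at -0.19 (adjusted p = 0.32) and Trf at -0.38 (adjusted p = 0.23). Fa2h, which hydroxylates the fatty acids of myelin lipids, covered 9.32 to 17.1 CPM in controls and 8.33 to 10.8 CPM in mutants (log2 fold change -0.47, adjusted p = 0.071). Aspa, which splits N-acetylaspartate for lipid synthesis, covered 3.2 to 4.1 and 2.83 to 4.03 CPM (log2 fold change -0.18, adjusted p = 0.31).

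When 1 library was left out at a time, the 7 early members fell in all 8 fits, as did Mag, Mobp, Nkx6-2, Gjb1 and Tspan2 among the late members. The other 8 late members (Myrf, Mbp, Mog, Cnp, Cldn11, Ugt8a, Gal3st1 and Trf) kept the call in only 2 or 3 of these fits. The count of members that fell was 12 without control mouse 58, 13 without control mouse 63, 12 without mutant mouse 59, 60 or 61, and between 19 and 24 without any of the other 3 libraries. When the log2 sum of the 7 striatal genes was added as a covariate, after the data were seen, the same 7 early members and 9 late members (Cnp, Gal3st1, Gjb1, Mag, Mobp, Mog, Myrf, Nkx6-2 and Tspan2) fell. Of these, Cnp (adjusted p = 0.04), Gal3st1 (adjusted p = 0.049) and Mog (adjusted p = 0.049) lay close to the threshold.

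**Figure D2:**
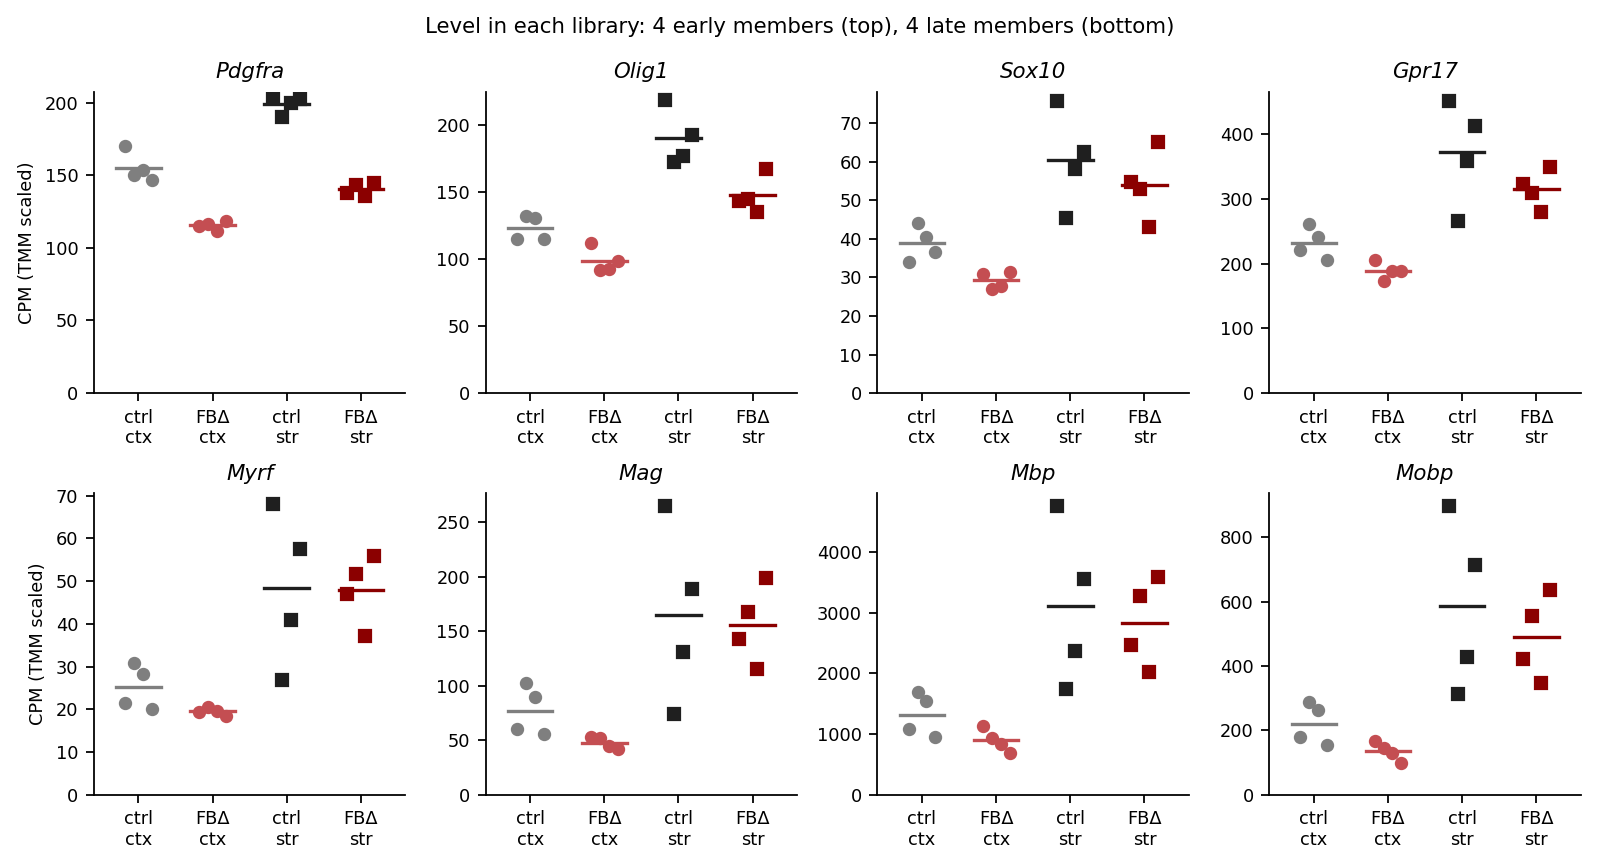
Level in each library, in CPM scaled by TMM (y axis from 0), for 4 early members (top) and 4 late members (bottom) in control and Trrap-FBΔ cortex and in the control and Trrap-FBΔ libraries labelled striatum; each point is 1 mouse, in the order of mouse numbers, and the line is the mean. Pdgfra separates the genotypes in both tissues, whereas for Myrf, Mag, Mbp and Mobp the 4 control striata spread widely around the 4 Trrap-FBΔ striata.

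In the libraries labelled striatum, Pdgfra, Olig1 and Olig2 were lower in Trrap-FBΔ mice, and the late members did not differ beyond the spread. The list as a whole did not stand out by its count: of 30 members 3 fell and 0 rose, where 15.8% of all 18872 genes tested fell, and the same 3 were the members whose groups did not overlap, against 16.0% of all genes. All 3 are early members. The median log2 fold change was -0.21 over the 10 early and -0.12 over the 20 late members, against 0.00 over all genes. Among the late members 17 values were negative and 3 positive, from -0.39 to 0.14. By edgeR 0 of 20 passed, and 0 of 20 were under an unadjusted p of 0.05 by edgeR, DESeq2 or limma-voom.

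Pdgfra stood at 203, 190.2, 199.7 and 202 CPM in control and 137, 143, 136 and 145 CPM in Trrap-FBΔ striata. The control libraries lay close together, the mutant libraries lay close together, and the 2 groups were far apart (log2 fold change -0.50 ± 0.04 SE, adjusted p = 0.00011). Olig1 stood at 219, 173, 177 and 193 CPM in controls and 144, 145, 135 and 167 CPM in mutants (log2 fold change -0.37 ± 0.09 SE, adjusted p = 0.0097), with mutant mouse 61 just below control mouse 63. Olig2 stood at 72.7, 57.4, 58.8 and 68.1 CPM in controls and 48.7, 53.1, 48 and 57.1 CPM in mutants (log2 fold change -0.31 ± 0.09 SE, adjusted p = 0.02), where mouse 61 and mouse 63 were again the nearest. With control mice 63 and 65 alone as controls, added after the data were seen, 2 of 30 members passed, where 10.3% of all genes fell: Pdgfra at -0.48 (adjusted p = 0.0022) and Olig1 at -0.31 (adjusted p = 0.04), while Olig2 was at -0.28 (adjusted p = 0.06). Olig2 also lost the call in 2 of the 8 fits that left out 1 library and with sex as a covariate, where Pdgfra and Olig1 passed. The count of members that fell was 5 without control mouse 63, where Cspg4 and Gpr17 also passed, and 2 or 3 without any of the other libraries.

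The remaining early members overlapped between the genotypes in the striatum. Cspg4 stood at 42.4, 29, 36 and 36 CPM in controls and 31.2, 26.4, 25.4 and 31.5 CPM in mutants (log2 fold change -0.32 ± 0.11 SE, adjusted p = 0.054). Sox10 stood at 75.7, 45.5, 58 and 62.4 CPM in controls and 54.7, 53, 43.2 and 65 CPM in mutants (log2 fold change -0.16 ± 0.15 SE, adjusted p = 0.45). For both genes mouse 63 was the lowest control. Gpr17 stood at 452, 266, 359 and 413 CPM in controls and 323, 309.6, 279.9 and 349 CPM in mutants (log2 fold change -0.24 ± 0.14 SE, adjusted p = 0.22). Nkx2-2 stood at 20.7, 16.4, 17.5 and 17.6 CPM in controls and 16.6, 16.2, 15.9 and 18.7 CPM in mutants (log2 fold change -0.09 ± 0.08 SE, adjusted p = 0.42). Apart from control mouse 58, the Nkx2-2 levels of both genotypes lay between 15.9 and 18.7 CPM. Enpp6 stood at 98.3, 58, 65.9 and 88.5 CPM in controls and 64.3, 74.4, 60.3 and 75 CPM in mutants (log2 fold change -0.18 ± 0.15 SE, adjusted p = 0.4). Bcas1 stood at 354, 241, 259.5 and 308 CPM in controls and 254, 281, 226 and 290.1 CPM in mutants (log2 fold change -0.14 ± 0.12 SE, adjusted p = 0.39). In these 2 genes of the newly formed stage all mutant libraries lay within the control range, apart from mouse 60 for Bcas1. Bmp4 covered 11.4 to 12.8 CPM in controls and 10.5 to 13.9 CPM in mutants (log2 fold change -0.01 ± 0.09 SE, adjusted p = 0.95).

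The late members ranked the control striata in 1 order. Mbp stood at 4763, 1749, 2369 and 3549 CPM in controls and 2472, 3269.8, 2027 and 3581 CPM in mutants (log2 fold change -0.13 ± 0.28 SE, adjusted p = 0.76). Mobp stood at 896, 314, 428 and 712 CPM in controls and 422, 556, 347 and 637 CPM in mutants (log2 fold change -0.26 ± 0.30 SE, adjusted p = 0.54). In both genes, control mouse 58 was the highest and control mouse 63 the lowest of all 8 libraries. Myrf stood at 68.1, 26.8, 40.9 and 57.6 CPM in controls and 46.9, 51.8, 37.2 and 55.9 CPM in mutants. Mag stood at 265, 74.4, 131 and 188 CPM in controls and 143, 167, 115 and 198 CPM in mutants. Mog stood at 98.2, 31.1, 45.8 and 78.7 CPM in controls and 45.1, 66, 35.7 and 74.9 CPM in mutants. Each of these genes placed the 4 mutants between control mice 63 and 58. Cnp stood at 590.0, 255, 356 and 497 CPM in controls and 363, 419, 319 and 468 CPM in mutants, and Opalin at 11, 4.49, 5.18 and 8.75 and 6.66, 9.11, 4.94 and 9.74 CPM. Without control mouse 58, the signs of the late members turned, with 2 negative and 18 positive values and a median of 0.14, and Nkx6-2 then passed as higher. With sex as a covariate 8 were negative and 12 positive, so that no direction can be given for the late members in the striatum.

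The other late members that fell in the cortex also overlapped between the genotypes in the striatum. Nkx6-2 stood at 10, 4.04, 4.57 and 5.5 CPM in controls and 6.45, 6.56, 5.64 and 7.76 CPM in mutants, and in 3 of 4 controls it was below every mutant. Tspan2 stood at 277, 133, 159.7 and 252 CPM in controls and 159, 212, 136 and 208 CPM in mutants. Gjb1 stood at 10.8, 2.75, 4.47 and 7.61 CPM in controls and 4.15, 6.31, 2.77 and 8.4 CPM in mutants. Both put control mice 58 and 65 above control mice 63 and 64. Cldn11 stood at 209.7, 70.3, 107 and 164 CPM in controls and 116, 147, 94.4 and 150.0 CPM in mutants. Ugt8a stood at 287, 89.4, 128 and 232 CPM in controls and 130.3, 186, 108 and 185 CPM in mutants. Their control libraries alone spanned the range of all 8. Gal3st1 stood at 31.4, 18.7, 19.3 and 23.5 CPM in controls and 21.3, 21.8, 17.1 and 27.6 CPM in mutants, and Trf at 5.6, 1.36, 1.84 and 4.02 and 2.11, 2.52, 1.73 and 3.29 CPM. Mal covered 39.6 to 191 CPM in controls and 59.5 to 129.7 CPM in mutants, Ermn 12.4 to 42.7 and 15.4 to 29.3 CPM, Sirt2 260.3 to 404 and 302 to 364 CPM, and Hapln2 1.48 to 8.31 and 2.33 to 5.97 CPM. Fa2h covered 14 to 45.6 CPM in controls and 19.4 to 37.8 CPM in mutants, and Aspa 6.81 to 14 and 8.11 to 11.6 CPM.

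An interaction of genotype and tissue, fitted on all 16 libraries, asked if the deletion acted differently in the 2 tissues. By edgeR 0 of 30 members passed, where 0.437% of 19438 genes passed, and 2 members, Nkx2-2 and Nkx6-2, were under an unadjusted p of 0.05. DESeq2 and limma-voom likewise passed 0 members, with 2 under an unadjusted p of 0.05 each. The difference, striatal minus cortical effect, was 0.29 ± 0.12 SE for Nkx2-2 (adjusted p = 0.34) and 1.06 ± 0.36 SE for Nkx6-2 (adjusted p = 0.22). Without control striatum 58 the count was 1, Nkx6-2. That 13 late members fell in the cortex but 0 in the striatum was thus not shown to be a difference between the tissues.

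All 30 members were higher in the libraries labelled striatum than in the cortex in both genotypes, where 20.3% of all genes were higher in controls and 27.4% in the Trrap-FBΔ group. In controls the log2 fold change had a median of 1.07 over the 30 members and the groups did not overlap for 21 members, against 18.9% of all genes. In Trrap-FBΔ mice the median was 1.45 and the groups did not overlap for any of the 30 members, against 25.4% of all genes. With the mouse as a fixed replicate block, 26 members passed in controls and 30 in the Trrap-FBΔ group, with medians of 0.855 and 1.44. The values of single genes given below are from the fits without this block. In controls the count was 25 to 30 when 1 library was left out, 28 with control cortices 55 and 64 alone and 23 with control striata 63 and 65 alone. The genes of thalamic and midbrain neurons rose alongside, as given above, and their part in this difference was not tested.

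**Figure D3:**
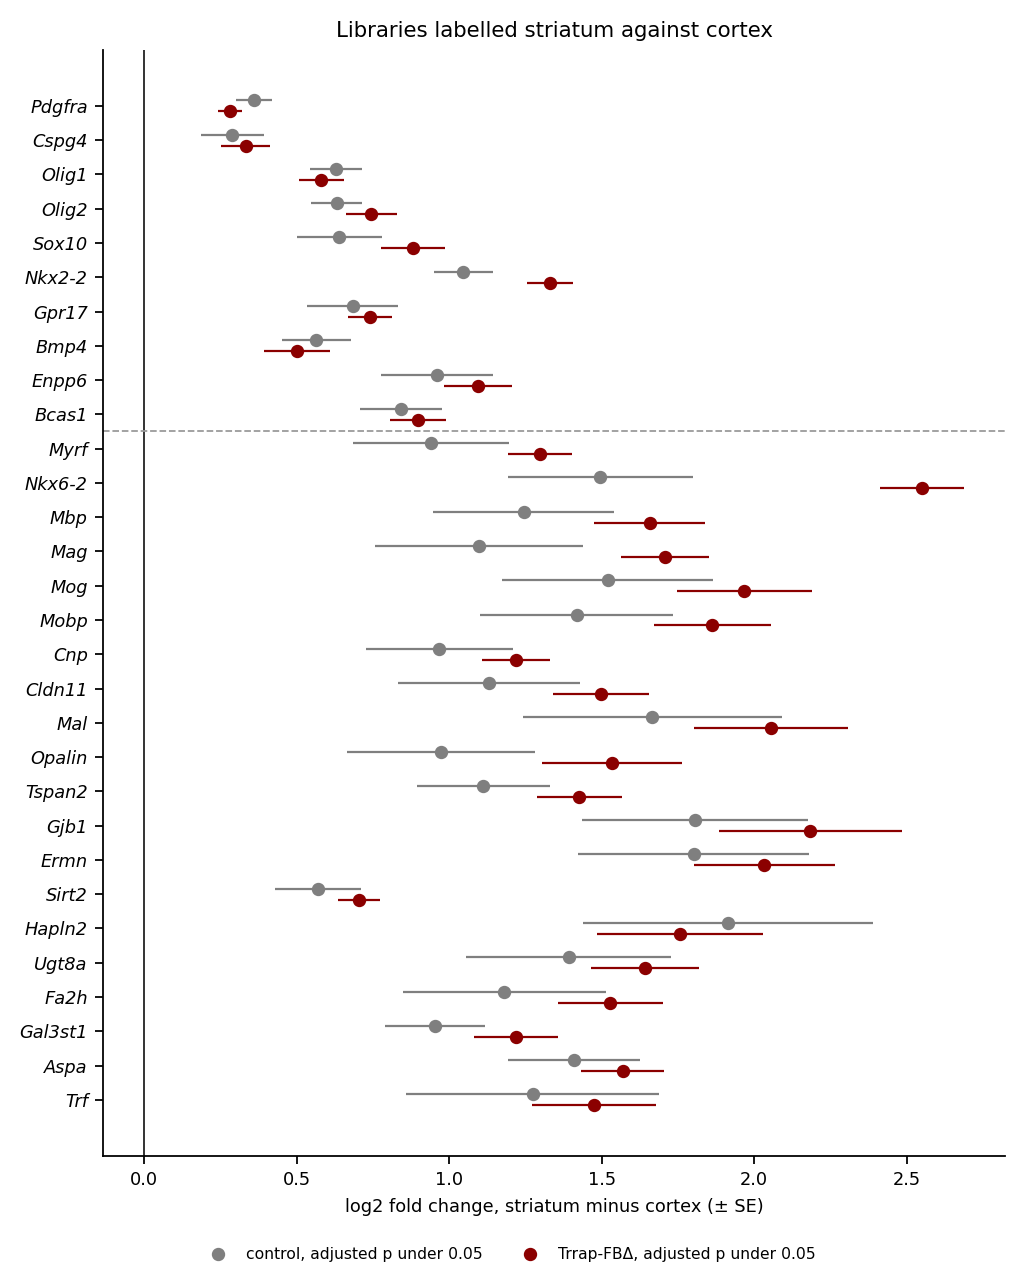
Log2 fold change of each of the 30 members, libraries labelled striatum minus cortex, with its standard error (x axis), in controls (grey) and Trrap-FBΔ mice (dark red). All 60 points are filled (adjusted p under 0.05) and lie to the right of 0; the dashed line separates the 10 early members (top), with Pdgfra and Cspg4 nearest to 0, from the 20 late members.

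The difference was smallest for the precursor genes. Pdgfra was 0.36 higher on the log2 scale in control striata (adjusted p = 0.00079) and 0.28 higher in Trrap-FBΔ striata (adjusted p = 7e-05), and Cspg4 0.29 (adjusted p = 0.047) and 0.33 (adjusted p = 0.0037). In controls, 1 of these 2 genes passed with control cortices 55 and 64 alone, and 1 with control striata 63 and 65 alone. The transcription factors Olig1, Olig2 and Sox10 lay between 0.63 and 0.64 in controls and between 0.58 and 0.88 in mutants, and Nkx2-2 was at 1.05 and 1.33. At the newly formed stage, Enpp6 rose by 0.96 in controls and 1.09 in mutants, and Bcas1 by 0.84 and 0.90. Myelin genes reached the largest values, among them Mbp at 1.24 and 1.66, Mog at 1.52 and 1.97, Ermn at 1.80 and 2.03 and Gjb1 at 1.81 and 2.18. Nkx6-2 was at 1.5 in controls and 2.55 in mutants, the largest of the 30 in the latter. Sirt2 was the lowest late member, at 0.57 and 0.71. These contrasts share no library with each other, but each shares its libraries with the genotype contrasts above.

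Precursor and late genes were also set against each other within each library. The precursor level, the mean log2 CPM of Pdgfra and Cspg4, was 6.14, 6.10, 6.04 and 6.02 in control and 5.65, 5.66, 5.65 and 5.76 in Trrap-FBΔ cortices, and 6.54, 6.21, 6.41 and 6.42 in control and 6.03, 5.94, 5.88 and 6.08 in Trrap-FBΔ striata. Thus no mutant library reached the lowest control of its tissue. The late level, the mean log2 CPM of the 20 late members, was 4.22, 4.76, 4.67 and 4.08 in control and 4.19, 4.06, 3.93 and 3.73 in Trrap-FBΔ cortices, and 6.38, 4.85, 5.33 and 5.98 in control and 5.45, 5.80, 5.16 and 5.98 in Trrap-FBΔ striata. The genotypes overlapped in both tissues for this level. The ratio of the late to the precursor level was 0.265, 0.395, 0.386 and 0.261 in control cortices, 0.365, 0.33, 0.304 and 0.245 in Trrap-FBΔ cortices, 0.90, 0.39, 0.475 and 0.739 in control striata and 0.669, 0.907, 0.606 and 0.936 in Trrap-FBΔ striata. Apart from the control striatum of mouse 63, every library labelled striatum had a higher ratio than every cortex.

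**Figure D4:**
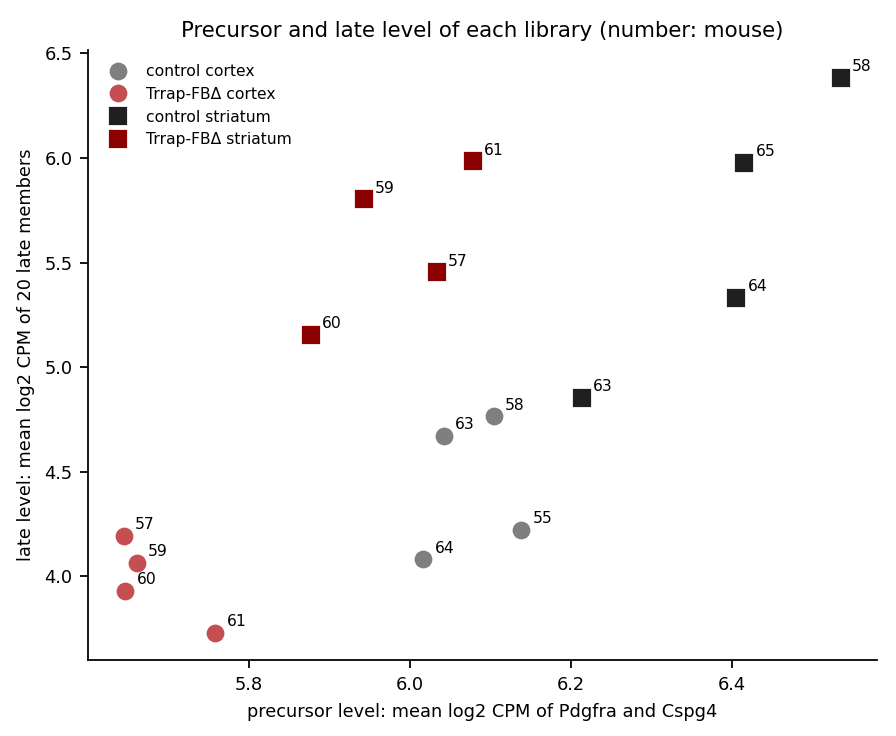
Late level (mean log2 CPM of the 20 late members, y axis) against precursor level (mean log2 CPM of Pdgfra and Cspg4, x axis) of each library, with the number of the mouse; circles are cortices and squares libraries labelled striatum. Within each tissue the Trrap-FBΔ libraries lie to the left of all 4 controls, while on the y axis the 2 genotypes overlap.

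The late members varied more between mice of 1 group than the early members did. The median standard deviation of log2 CPM over the 4 libraries was 0.38 for late members, 0.14 for early members and 0.10 for all genes in control cortices. In Trrap-FBΔ cortices these values were 0.22, 0.12 and 0.10, in control striata 0.69, 0.20 and 0.12, and in Trrap-FBΔ striata 0.38, 0.14 and 0.08. The members moved together across mice. In control cortices, mice 58 and 63 both exceeded mice 55 and 64 for 20 of 20 late and 7 of 10 early members. In control striata, mice 58 and 65 both exceeded mice 63 and 64 for 20 of 20 late and 9 of 10 early members. The Trrap-FBΔ striatum of mouse 60 was the lowest of its group for all 30 members. Mouse 61 was the highest Trrap-FBΔ striatum for 17 of 20 late members and the lowest Trrap-FBΔ cortex for 17 of 20, and mouse 63 was among the 2 highest control cortices and the lowest control striatum for 20 of 20 late members, so that a mouse high in 1 tissue was not always high in the other.

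The control libraries with the highest late members also stood out in neuronal genes. Control cortices 58 and 63, with the highest late level, had the highest sums of the 7 striatal genes of all 8 cortices. In the Trrap-FBΔ cortices the order was the reverse. There mouse 57 had the highest late level, 4.19, and the lowest sum, 222 CPM. Mouse 61 had the lowest late level, 3.73, and the highest sum, 318 CPM. In the striata, control mouse 58 had the highest late level and the lowest sum of striatal genes. The sums of the 6 thalamic and midbrain genes were 471, 384, 344 and 574 CPM in the control striata, where mice 58 and 65, the 2 highest for late members, were also the 2 highest, and 489, 601, 473 and 554 CPM in the Trrap-FBΔ striata. In the cortices these sums were 102, 91.5, 57.8 and 86.9 CPM in controls and 53.7, 63.2, 54.6 and 58.3 CPM in mutants and did not follow the late members. The part of these genes' source in the late members was not tested.

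**Figure D5:**
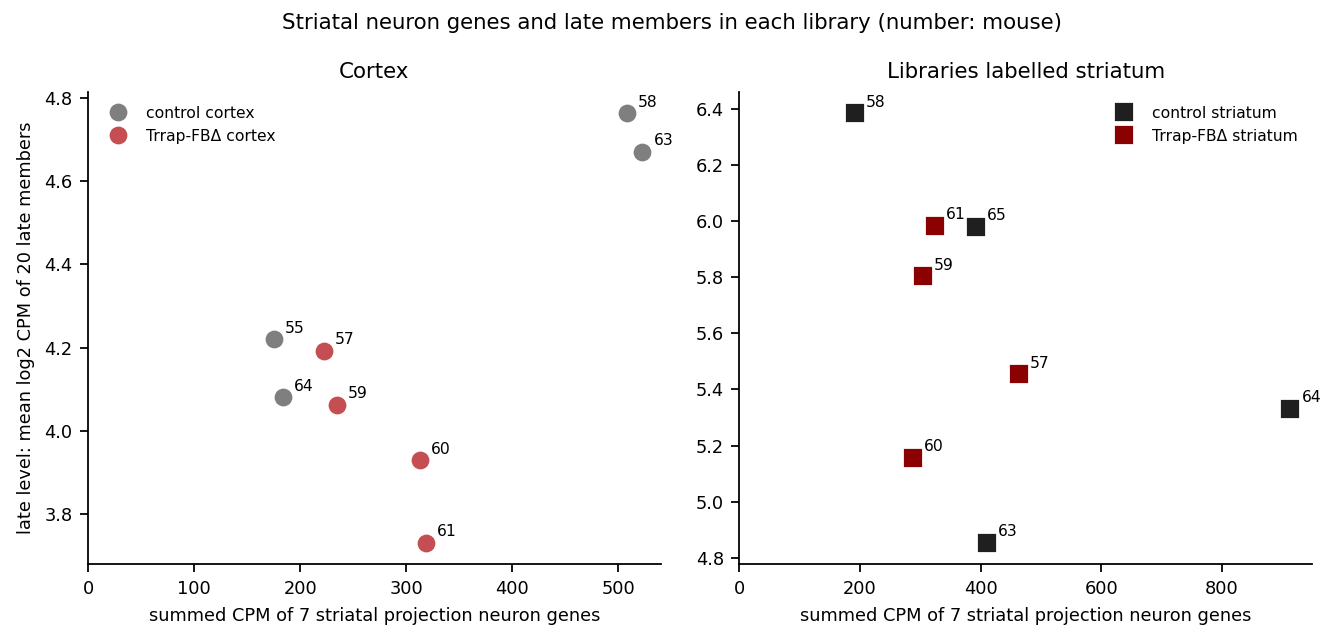
Late level (mean log2 CPM of the 20 late members, y axis, with its own scale in each panel) against the summed CPM of 7 genes of striatal projection neurons (x axis from 0) in the 8 cortices (left) and the 8 libraries labelled striatum (right), with the number of the mouse. Control cortices 58 and 63 stand apart at the top right with sums of 508 and 523 CPM, and control striatum 58 lies at the top left with 191 CPM. Among the Trrap-FBΔ cortices the late level is lower where the sum is higher.

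Other genes of the lineage were read from lists that hold none of the 30 members. Their counts stand beside a share of all genes that fell of 17.6% in the cortex and 15.8% in the striatum, or 12.3% with control cortices 55 and 64 alone and 10.3% with control striata 63 and 65 alone. Of 18 further precursor genes 10 fell and 0 rose in the cortex, with the smallest adjusted p for Vcan at -0.57, Cacng4 at -0.53, Susd5 at -0.66, Cspg5 at -0.33, Ptprz1 at -0.42 and Matn4 at -0.33 on the log2 scale. Vcan, Cspg5 and Ptprz1 encode proteoglycans of the matrix and the cell surface, and Cacng4 an auxiliary subunit of AMPA receptors. In the striatum 10 of 18 fell and 0 rose as well, led by Ptprz1 at -0.54, Vcan at -0.55, Neu4 at -0.35, Cspg5 at -0.33, Xylt1 at -0.34 and Matn4 at -0.40. The counts were 7 of 18 with control cortices 55 and 64 alone and 6 of 18 with control striata 63 and 65 alone. Several of these genes, such as Ptprz1 and Cspg5, are also expressed by astrocytes.

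Of 10 genes of the newly formed stage, 3 fell in the cortex, Rras2 at -0.25, Cnksr3 at -0.41 and Fyn at -0.13, and 0 rose. In the striatum Rras2 at -0.47 fell and Tcf7l2 at 0.47 rose. Tcf7l2, a mediator of Wnt signalling that marks newly formed oligodendrocytes, is also a gene of thalamic neurons, and stood at 6.11 to 14.6 CPM in cortex and 86.4 to 168 CPM in the libraries labelled striatum. Of 31 genes of myelinating cells tested in the cortex, 15 fell and 3 rose. The falls were led by Cntn2 at -0.57, Trim59 at -0.64, Gpr37 at -0.41, Ndrg1 at -0.82, Gamt at -0.62 and Cdk18 at -0.54, and the rises were Il33 at 0.27, Anln at 0.30 and Serpinb1a at 0.58. Gamt makes creatine, Gpr37 is a receptor of maturing oligodendrocytes, and Cntn2, also made by neurons, holds axon and glia together beside the nodes. With control cortices 55 and 64 alone, 6 of 31 fell and 1 rose. In the striatum 5 of 32 fell and 0 rose, Omg at -0.42, Ndrg1 at -0.66, Trim59 at -0.40, Car2 at -0.28 and Cntn2 at -0.38, and 3 of 32 fell with control striata 63 and 65 alone, both close to the share of all genes. Omg, whose protein limits neurite growth, is made by neurons too.

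Among 18 further regulators of the lineage, 5 fell in the cortex, Sox5 at -0.31, Yy1 at -0.15, Prrx1 at -0.31, Hes5 at -0.32 and Smarca4 at -0.18, and Zfp24 at 0.18 rose. Sox5 and Hes5 are known to hold precursors back from differentiation, and Smarca4 is the ATPase of a chromatin remodeller. In the striatum Zeb2 at -0.42, Sox5 at -0.40 and Prrx1 at -0.26 fell and Ep400 at 0.21 rose, the latter a subunit of a complex that also holds Trrap. Of 23 ligands and receptors 9 fell in the cortex, led by Jag1 at -0.47, Nrg1 at -0.35, Fgfr2 at -0.32, Tgfbr1 at -0.34, Igf1r at -0.24 and Igf1 at -0.20, and Fgfr1 at 0.33 rose. In the striatum 7 of 24 fell, led by Thrb at -0.71, Cxcr4 at -0.45, Thra at -0.31, Igf1 at -0.30, Jag1 at -0.36 and Lingo1 at -0.20, and 0 rose. Thra and Thrb are receptors of thyroid hormone, which times the exit of precursors from the cell cycle, and both are abundant in neurons. The effect of the genotype differed between the tissues for Zeb2 (-0.37, adjusted p = 0.034) and Thrb (-0.61, adjusted p = 0.025), striatal minus cortical effect. Of 11 axonal partners of myelin, 6 fell in the cortex, Ncam1 at -0.48, Cntn1 at -0.30, Ank3 at -0.23, Nectin3 at -0.18, Cntnap1 at -0.41 and Cadm3 at -0.18, and 5 in the striatum, Nectin3 at -0.31, Nrcam at -0.23, Cadm2 at -0.26, Cntn1 at -0.25 and Ank3 at -0.26. With control cortices 55 and 64 alone the falls were 2 of 10 genes of the newly formed stage, 4 of 18 regulators, 6 of 23 ligands and receptors and 3 of 11 axonal partners, and 0 rose in these lists. With control striata 63 and 65 alone they were 1 of 10, 3 of 18, 3 of 24 and 2 of 11, and the rises of Tcf7l2 and Ep400 did not pass.

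Markers of some other cell types were lower in Trrap-FBΔ mice too. Of all genes, 17.6% fell and 15.7% rose in the cortex, and 15.8% fell and 14.4% rose in the striatum. With control cortices 55 and 64 alone the shares were 12.3% and 10.0%, and with control striata 63 and 65 alone 10.3% and 8.5%. In lists of 6 to 8 markers, 1 or 2 calls do not stand out from these shares. All 8 microglial markers fell in the cortex, with sums of 373 to 420.3 CPM in controls and 271 to 341 CPM in mutants, and 6 of 8 fell in the striatum, with 304 to 369.7 and 257 to 272 CPM. With control cortices 55 and 64 alone 7 of 8 fell, and with control striata 63 and 65 alone 5 of 8. Of the endothelial markers, 4 of 6 fell in the cortex (145 to 176 against 136 to 142 CPM) and 2 of 6 in the striatum (134 to 181 against 129 to 155 CPM). Mural markers, which matter for Cspg4, gave 4 of 6 in the cortex (320.3 to 398 against 252 to 320.3 CPM) and 2 of 6 in the striatum (335 to 400.1 against 253 to 318 CPM). With control cortices 55 and 64 alone, 3 of 6 endothelial and 1 of 6 mural markers fell, and with control striata 63 and 65 alone 0 of 6 and 1 of 6. Markers of meningeal fibroblasts, which matter for Pdgfra, showed 0 of 7 lower in the cortex (104 to 176 against 145 to 172 CPM), and in the striatum 1 fell and 2 rose (151 to 248 against 203 to 252 CPM). With 2 controls as above, 1 of 7 fell in the cortex, and in the striatum 0 fell and 1 rose. Of 8 astrocyte markers 2 fell and 2 rose in the cortex, and 0 fell and 2 rose in the striatum, or 1 fell and 0 rose and 0 fell and 1 rose with 2 controls. The part of these cells in the lower precursor genes was not tested.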

How the data were processed

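Tissue labelled cortex or striatum from 9 mice, 16 libraries in all, was sequenced from stranded mRNA libraries. The authors aligned single-end reads to GRCm38 with STAR 2.5.4b and counted uniquely mapped reads on each gene strand by strand with featureCounts 1.5.0, and they deposited raw counts per gene, neither normalized nor filtered. Groups and mouse numbers came from the labels. Symbols and coordinates came from a GENCODE annotation of the same build. Each comparison was fitted with edgeR 4.0.16 in R 4.3.3 (filterByExpr, TMM, quasi-likelihood test, Benjamini-Hochberg adjustment over all genes tested, adjusted p under 0.05), within 1 tissue or 1 genotype, with 4 libraries a group, or over all 16 for the interaction. CPM are TMM-scaled over all 16 libraries, and depth limits the lowest genes most. DESeq2 1.42.0 and limma 3.58.1 (voom), other scalings, no filter, sex as a covariate and leaving out each library were alternatives, and the fits by striatal genes were added after the data were seen. Steps were tested on simulated data. Tissues of 7 mice came from the same animal. Over all genes tested, limma estimated a correlation within a mouse that remained beyond the fitted groups. It was 0.248 in controls, 0.176 in Trrap-FBΔ mice and 0.208 over both, so the mouse was also fitted as a block.

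The members and lists were chosen with earlier results of these data known. CPM in every library are given for 15 members named in advance and for every member that passed in a genotype comparison, and ranges for the others. Of the other lineage genes, at most 6 per list and direction are named, by smallest adjusted p. Some neuronal marker genes are not reported here and entered neither the sums nor the covariate.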

Additional observations from a re-analysis of the deposited data

Results flagged for a closer look

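One level stood apart from its group. Trf in the control cortex of mouse 58 was at 1.84 CPM, against 1.11 to 1.14 CPM in the other 3 control cortices. The gap to the nearest library took up 0.957 of the range of the group, above Dixon's critical value for 4 samples. No other of the 120 sets of 4 libraries (30 members in 4 groups) passed that value, and chance passes about 1 in 20 such sets. Trf shares most of its exon bases with another gene on the same strand, and without this library its fall in the cortex did not pass the threshold.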

How the results depend on the processing

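In the cortex 20 of 30 members fell. This count was 7 with all 16 libraries in one fit, 4 with control cortices 55 and 64 alone, 16 with the striatal genes as a covariate and 12 to 24 when 1 library was left out; the other alternatives gave 15 (DESeq2, sex as a covariate) to 24 (no filter on low counts). In the striatum 3 members fell, 2 to 5 when 1 library was left out and 2 to 4 in the other fits. The interaction passed 0 members, and 0 to 1 when 1 library was left out. With the mouse as a replicate block, 26 of 30 members were higher in control striata, 30 in Trrap-FBΔ striata and 0 passed in the interaction, and this pairing changed no other call. Of single values, 86 of 510 in the cortex lost their call, 12 gained one and 4 changed sign; in the striatum 4, 5 and 10 of 204 did so; in the tissue contrast 41 of 570 in controls and 0 of 510 in Trrap-FBΔ mice lost it. Values were compared one by one for 30 cortical and 12 striatal members, of which 4 genes turned sign. The late members of the striatum turned more widely, from 17 negative and 3 positive values to 2 and 18 without control mouse 58, 8 and 12 with sex as a covariate and 5 and 15 with control striata 63 and 65 alone. Of 20 late members in the cortex, 13 were called, 1 with all 16 libraries in one fit, 8 with DESeq2 and 8 with sex as a covariate. Bmp4 in the striatum was at 0.012 with upper-quartile scaling, 0.060 with control striata 63 and 65 alone and -0.086 to 0.050 when 1 library was left out, and in the cortex -0.039 to 0.13. Mbp in the striatum was at 0.0087 with sex as a covariate, 0.099 with control striata 63 and 65 alone and -0.33 to 0.15 when 1 library was left out. Mobp in the striatum went from -0.47 to 0.017 when 1 library was left out. Sirt2 in the cortex was at 0.065 with control cortices 55 and 64 alone. The causes were not tested. Fits with fewer libraries also have less power, and the lowest genes, Trf and Hapln2, rest on the fewest counts.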
